A study of Mus musculus with 9 samples.

Results

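The 10 genes described here are the 4 receptors for fibroblast growth factors (FGFs), Fgfr1, Fgfr2, Fgfr3 and Fgfr4, and 6 genes that FGF signaling induces, Spry1, Spry2, Spry4, Dusp6, Etv4 and Etv5. They were chosen by name and not by their own values, though with earlier results of these data known. The choice was as a readout of FGF signaling in a cochlea in which RNA of the ligands Fgf20 and Fgf10 differed. Each gene was matched from its Ensembl identifier to its symbol among the 54232 genes of the series. Bulk RNA was measured in 9 libraries, 1 per mouse embryo at E14.5, from ducts dissected from its left and right ears together. The study compared 3 genotypes with 3 embryos each. WT embryos (Prdm16 +/+) carried no gene trap, heterozygotes (Prdm16 cGT/+) carried the cGT gene trap on a single Prdm16 allele, and null embryos (Prdm16 cGT/cGT) carried it on both. All came from matings of heterozygotes on an FVB/NJ background, and the WT and heterozygote controls were littermates of the null embryos. Each library is a whole duct, in which Kölliker's organ, prosensory domain, outer sulcus and roof are mixed.

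FGFs bind receptor tyrosine kinases at the cell surface, which signal through the adaptor FRS2, the RAS proteins and the kinase ERK. Active ERK signaling induces the ETS factors Etv4 and Etv5, which carry the transcriptional response, and a set of inhibitors that limit it, the Sprouty proteins and the phosphatase DUSP6, so the RNA of these genes is widely used as a readout of the pathway. In the cochlea, FGF20 from the prosensory domain acts through FGFR1 in the formation of hair cells and supporting cells, FGF10 from Kölliker's organ acts through the epithelial form of FGFR2 in the outgrowth of the non-sensory duct, and FGFR3 takes part in the formation of pillar cells. The counts are per gene and do not tell the splice forms of a receptor apart.

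The targeted gene Prdm16 was measured at 224.9, 197.1 and 183.8 CPM (counts scaled to a common library size, with TMM normalization) in WT embryos 1, 2 and 3, at 151.1, 122.6 and 141.0 CPM in the heterozygotes and at 23.7, 19.1 and 27.4 CPM in the null embryos, in the order of the labelled genotypes. The 9 libraries held 24095322 to 30819118 counts, and the duct epithelium markers Epcam and Cdh1 were at 603.3 CPM or more and 329.9 CPM or more in each. Libraries WT 1, WT 2 and null 3 stood apart. The summed level of 8 periotic mesenchyme markers was 548.3, 1015 and 1329 CPM in these 3 libraries and 33.5 to 105.5 CPM in the other 6, with all 8 markers higher in each of the 3 than in any of the 6, and none at 0 in any library. The same held for 4 of 4 endothelium markers, whose sum was 40.6 to 70.7 CPM against 2.36 to 5.37 CPM with Cdh5 at 0 in WT 3 and heterozygote 2, and for 2 of 4 macrophage markers. Markers of some of the duct's own regions also differed by genotype. The sum of 2 outer sulcus markers overlapped between all genotypes (476.0 to 565.9 CPM in WT, 537.6 to 601.0 CPM in heterozygotes and 564.1 to 769.3 CPM in null embryos), and that of 6 duct epithelium markers, Tecta among them, was 5338 to 5908, 5490 to 6405 and 4458 to 4998 CPM. Of these 6, only Tecta, also a Kölliker's organ marker, lay lower in all null embryos (1392 to 1641 CPM) than in WT (2599 to 3229 CPM). Sox2 lay higher (96.2 to 106.4 against 84.1 to 95.3 CPM), and Epcam, Cdh1, Pax2 and Otog overlapped. The summed level of 4 Kölliker's organ markers, Prdm16 and Fgf10 among them, was 2989 to 3707 CPM in WT, 2797 to 3485 CPM in heterozygotes and 1526 to 1788 CPM in null embryos, and that of 4 roof markers, Fgf9 among them, was 7512 to 8773, 9083 to 9504 and 10380 to 13800 CPM. The sum of 4 prosensory markers, Fgf20 among them, was 542.0 to 579.1 CPM in WT, 655.9 to 697.0 CPM in heterozygotes and 621.5 to 824.4 CPM in null embryos, and that of 4 melanocyte markers was 54.6 to 131, 20.4 to 39.8 and 12.04 to 42.6 CPM. The sum of 5 erythroid markers was 67.5 to 191 CPM in WT, 25.1 to 46.5 CPM in heterozygotes and 54.1 to 98.7 CPM in null embryos. In a whole duct, fewer cells of a type and less RNA per cell cannot be told apart.

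Dusp6 and Spry2 were the 2 of the 10 genes with the largest positive log2 fold change against WT in both null embryos and heterozygotes, while Spry1 was nearly level across the 9 libraries. The 250 bases before the start of these 3 genes are therefore shown, from RefSeq (GRCm38.p6, the same build as mm10), each 5′ to 3′ on the strand of the gene. Capitals mark GGAA, the core of the sites that ETS factors such as ETV4 and ETV5 recognise, and TTCC, which is GGAA on the other strand. The windows are chr10:99262981-99263230 on the plus strand for Dusp6, chr14:105896820-105897069 on the minus strand for Spry2 and chr3:37639697-37639946 on the plus strand for Spry1.
Dusp6: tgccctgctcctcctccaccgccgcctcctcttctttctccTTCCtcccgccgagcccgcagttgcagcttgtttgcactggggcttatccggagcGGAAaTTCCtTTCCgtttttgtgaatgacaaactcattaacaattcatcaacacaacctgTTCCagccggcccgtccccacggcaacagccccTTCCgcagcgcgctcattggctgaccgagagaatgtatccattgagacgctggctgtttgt
Spry2: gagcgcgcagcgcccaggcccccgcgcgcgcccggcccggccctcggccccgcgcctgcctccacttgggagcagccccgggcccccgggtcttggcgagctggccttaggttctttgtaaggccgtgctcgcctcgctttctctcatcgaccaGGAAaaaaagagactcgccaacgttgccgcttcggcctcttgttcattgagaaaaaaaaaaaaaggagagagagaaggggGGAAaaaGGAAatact
Spry1: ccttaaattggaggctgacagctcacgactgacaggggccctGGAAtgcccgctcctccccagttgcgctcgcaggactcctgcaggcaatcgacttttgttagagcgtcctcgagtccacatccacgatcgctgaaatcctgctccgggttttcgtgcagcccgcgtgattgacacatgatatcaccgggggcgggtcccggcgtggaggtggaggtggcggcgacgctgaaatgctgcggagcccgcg

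GGAA was found on either strand 6 times in the Dusp6 window, 3 times in that of Spry2 and 1 time in that of Spry1. Of 32851 upstream windows of the same length in the RefSeq table, 93.4% hold GGAA, with a median of 3 matches, so that its presence is common to most genes. CCGGAA, a longer form that contains GGAA, is in 12.0% of windows and in none of these 3. The letters TGAGTCA and TGACGTCA, searched on both strands as recognised by AP-1 and CREB factors, are in 4.46% and 1.55% of windows and in none of these 3. The table held an entry for 7 of the 10 genes, among which only Fgfr4 had CCGGAA. A match is a stretch of letters in the reference and was not tested as a bound site.

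All 10 genes passed the filter on low counts in every comparison. The genotypes were compared in pairs with edgeR's quasi-likelihood test across all genes, and a gene was called where its Benjamini-Hochberg adjusted p was under 0.05 and its log2 fold change was over 0.5 in size. Of the 10 genes, 0 were called between null and WT embryos, where 1.71% of 17168 tested genes were called, 0 between heterozygotes and WT (0.151% of 17269), and 0 between null embryos and heterozygotes (0.615% of 17067). The smallest edgeR adjusted p-values were 0.2426 (Fgfr2), 0.1111 (Fgfr4) and 0.1686 (Etv4). An unadjusted p under 0.05 was reached by 3, 4 and 1 of the 10 genes, against 12.2%, 13.1% and 11.4% of all tested genes. DESeq2 called 0, 1 and 0 of them, beside 618 of 31997, 318 of 32010 and 357 of 31930 genes. With limma-voom 0 were called in each pair, beside 300 of 17168, 11 of 17269 and 100 of 17067 genes. In a fit of all 9 libraries on the number of trapped alleles, with no fold threshold, 0 of 10 were called by edgeR (2 at an unadjusted p under 0.05, 2.98% of 17797 genes called and 15.3% under the unadjusted threshold), 1 by DESeq2 (Fgfr2, adjusted p = 0.04286) and 0 by limma-voom. Over all genes DESeq2 called 1048 of 33392 in this fit and limma-voom 567 of 17797. The median log2 fold change of the 10 genes was 0.18 between null and WT, -0.11 between heterozygotes and WT and 0.08 between null and heterozygotes, against 0.01, 0.00 and 0.01 over all tested genes. The 2 comparisons with WT share the WT libraries.

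**Figure D1:**
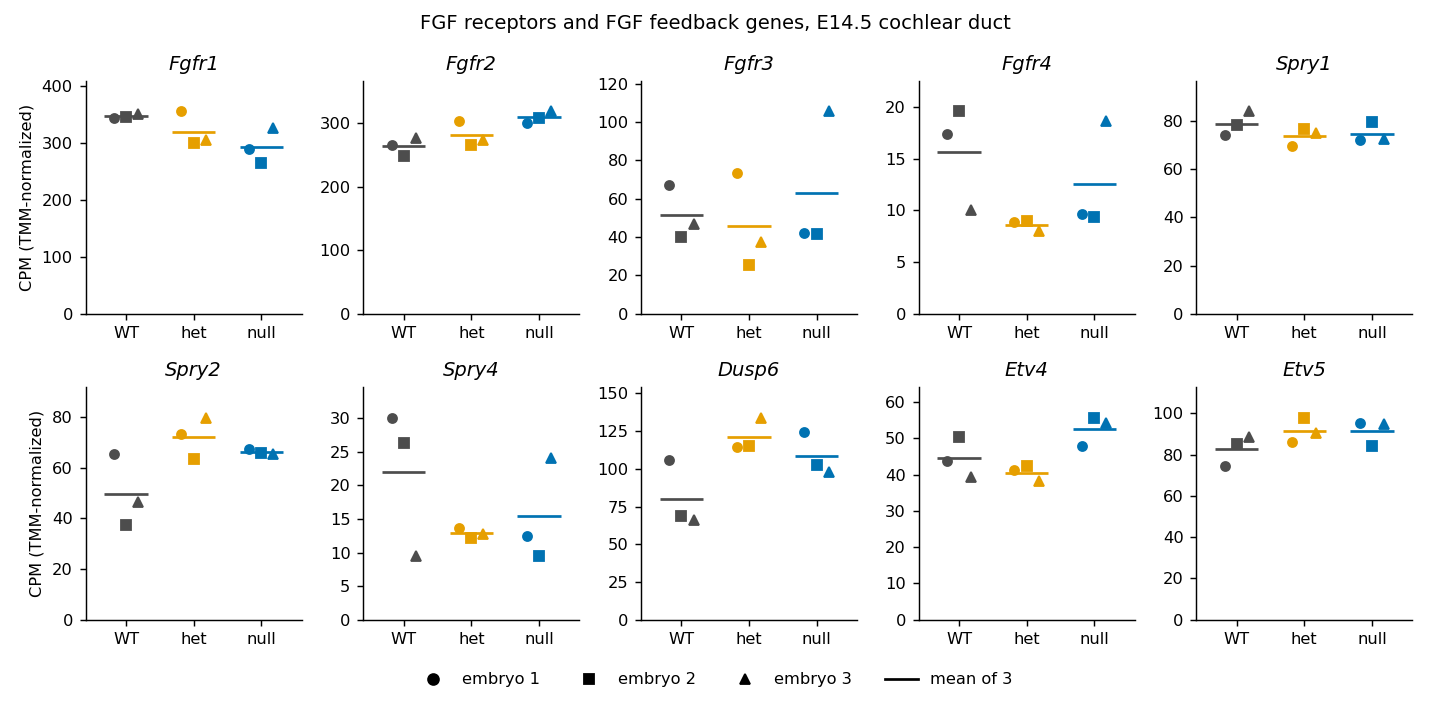
Level of each of the 10 genes in each library, in CPM on linear axes from 0 (dots, circles for embryo 1, squares for embryo 2 and triangles for embryo 3 of a genotype), with the mean of 3 embryos as a line. Fgfr1 and Fgfr2 are the genes with 247.7 CPM or more in every library, and Fgfr3, Fgfr4 and Spry4 have single libraries far from the rest of their genotype.

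The range over the 9 libraries differed widely between genes. The highest library was 1.21 times the lowest for Spry1, 1.29 times for Fgfr2, 1.32 times for Etv5, 1.35 times for Fgfr1 and 1.46 times for Etv4. It was 2.03 times for Dusp6, 2.13 times for Spry2, 2.45 times for Fgfr4, 3.18 times for Spry4 and 4.14 times for Fgfr3. The coefficient of variation within genotypes, averaged over the 3 genotypes, was 5.16% for Fgfr2, 5.75% for Spry1 and 7.04% for Fgfr1, below the median of 11.1% over 17797 tested genes. It was 35.4% for Spry4 and 47.0% for Fgfr3, above that of 86.2% and 92.4% of tested genes.

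Fgfr1 (ENSMUSG00000031565, chromosome 8 of mm10, 25513654 to 25575718, plus strand), the receptor that FGF20 acts through in the prosensory domain, was measured at 344.0, 345.7 and 350.3 CPM in WT embryos, at 354.8, 298.9 and 304.4 CPM in heterozygotes and at 289.2, 263.7 and 325.0 CPM in null embryos. Each null embryo lay below each WT embryo, and the heterozygotes spanned both groups. The fold of null over WT was 0.841 (95% interval 0.728 to 0.972), a log2 fold change of -0.25 (SE 0.0899, edgeR unadjusted p = 0.0246, adjusted p = 0.3017). Such a separation was found in 8.95% of tested genes for null below WT, and in 19% in either direction. Leaving out null embryo 3, which held the most Fgfr1 of the 3 null embryos, gave -0.33 (edgeR adjusted p = 0.0979), leaving out null embryo 2 gave -0.17 (adjusted p = 0.3611), and without null embryo 3 the slope over all genotypes passed (edgeR adjusted p = 0.0477 against 0.1915 with all 9 libraries).

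Fgfr2 (ENSMUSG00000030849, chromosome 7, 130162451 to 133123350, minus strand), whose epithelial form is the receptor of FGF10 and FGF3, was at 265.2, 247.7 and 277.4 CPM in WT, 303.3, 266.2 and 273.9 CPM in heterozygotes and 301.0, 308.6 and 318.6 CPM in null embryos. The null embryos lay above the WT embryos without overlap, as in 10.1% of tested genes, on the opposite side to Fgfr1, and the heterozygotes overlapped both. The fold of null over WT was 1.17 (95% interval 1.04 to 1.32), a log2 fold change of 0.23 (SE 0.0732, edgeR unadjusted p = 0.0151, adjusted p = 0.2426). The slope was 0.12 per trapped allele (SE 0.0336, edgeR adjusted p = 0.1048). For both receptors the interval ends short of a change of 0.5 on the log2 scale. The Kölliker's organ, duct epithelium and melanocyte marker sums, all lower, and the roof and prosensory marker sums, both higher, also separated null from WT embryos. Their part in the levels of Fgfr1 and Fgfr2 was not tested. The Kölliker's organ and duct epithelium sums share Tecta, and the former holds the targeted gene Prdm16. The exons of Fgfr2 share 314 bases with Ctbp2 on the same strand, which was at 78.7 to 87.5 CPM in all libraries.

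Fgfr3 (ENSMUSG00000054252, chromosome 5, 33721674 to 33737068, plus strand), a receptor of the pillar cell region and of cartilage, was at 67.2, 40.0 and 46.5 CPM in WT, 73.5, 25.5 and 37.5 CPM in heterozygotes and 42.3, 41.5 and 105.5 CPM in null embryos. The groups overlapped fully, and each held 1 embryo far above its other 2. The fold of null over WT was 1.23 with a 95% interval of 0.675 to 2.23 (log2 fold change 0.29, SE 0.3719, edgeR adjusted p = 0.7986). Without null embryo 3 the log2 fold change was -0.29 (edgeR adjusted p = 0.5285), so a single library set its sign. That library also stood apart in cartilage genes looked up after its Fgfr3 value was seen. Acan, the main proteoglycan of cartilage, was at 501.3 CPM there and at 1.02 to 7.02 CPM in the other 8 libraries, and the cartilage matrix gene Matn1 at 390.1 CPM against 5.17 to 13.6 CPM. The part of cartilage RNA in the Fgfr3 level was not tested, and Acan was at 1.85 and 1.89 CPM in WT 1 and heterozygote 1, where Fgfr3 was also high.

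Fgfr4 (ENSMUSG00000005320, chromosome 13, 55152640 to 55168759, plus strand) was the receptor with the fewest reads, with 17.4, 19.6 and 10.03 CPM in WT, 8.87, 9.01 and 8.002 CPM in heterozygotes and 9.65, 9.33 and 18.6 CPM in null embryos. All heterozygotes lay below all WT embryos, a separation found in 8.99% of tested genes in that direction and in 18% in either, and null embryos overlapped WT and lay above the heterozygotes. The fold of heterozygotes over WT was 0.551 (95% interval 0.396 to 0.767), a log2 fold change of -0.86 (SE 0.2128, edgeR unadjusted p = 0.0025, adjusted p = 0.1111). It passed with DESeq2 and in the edgeR fits without WT embryo 3 (adjusted p = 3.55e-04) and without a filter on low counts. Without WT embryo 3 the WT group is WT 1 and WT 2, both rich in mesenchyme markers. The fit without a filter called 684 genes over all genes, in place of 26. Without libraries WT 1, WT 2 and null 3, which leaves 1 WT embryo with no replicate, the log2 fold change was -0.22. With the mesenchyme marker level as a covariate the value was -0.10 (edgeR adjusted p = 0.9358). The mesenchyme marker sums of heterozygotes (48.4 to 92.3 CPM) and WT (105.5 to 1015 CPM) did not overlap, so this fit cannot tell genotype and mesenchyme level apart. The marker sums of erythroid cells, melanocytes and macrophages (1.37 to 2.05 CPM against 2.37 to 12.7 CPM) were also lower in all heterozygotes than in WT. The part of these cell types and of mesenchyme in the Fgfr4 difference was not tested. For null over WT embryos the log2 fold change was -0.33 (SE 0.3335, edgeR adjusted p = 0.7554), from -0.72 without null 3 to -0.13 without WT 2.

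**Figure D2:**
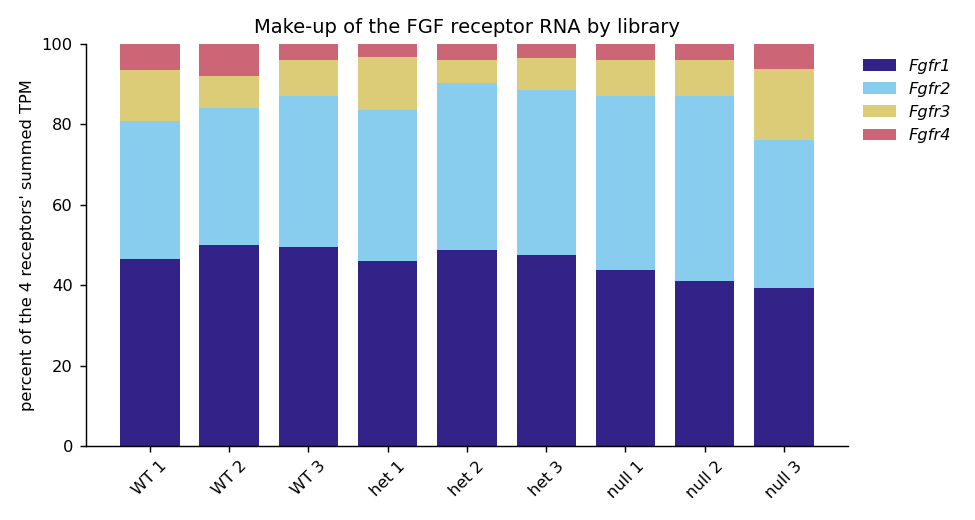
Percent of the summed length-scaled level (TPM) of the 4 FGF receptors that each receptor holds, 1 bar per library. Fgfr1 holds 46.6% to 49.9% in WT, 46.0% to 48.7% in het (heterozygote) and 39.3% to 43.7% in null libraries, and Fgfr3 is widest in null 3 with 17.6%.

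To compare receptors with one another, counts were divided by the summed length of each gene's exons and scaled to a common total in each library (TPM). Fgfr1 held 48.7% ± 1.83 (SD, n = 3) of the receptor TPM in WT, 47.4% ± 1.34 (SD, n = 3) in heterozygotes and 41.4% ± 2.20 (SD, n = 3) in null embryos, and the null embryos lay below both other groups without overlap. Fgfr2 held 35.3% ± 1.86 (SD, n = 3), 40.0% ± 2.09 (SD, n = 3) and 42.1% ± 4.72 (SD, n = 3). Of 12 comparisons of shares (4 receptors in 3 pairs of genotypes), the largest was Fgfr1 between null and WT, with a difference of -7.32 percentage points and an exact two-sided permutation p = 0.1, the smallest that 3 against 3 embryos can give (adjusted p = 0.4). Fgfr2 was higher in null embryos by 6.74 points (exact permutation p = 0.2, adjusted p = 0.48), with null embryo 3 at 36.8% within the WT range of 34.2% to 37.5%. On the length of the longest transcript and on counts without length, null embryo 3 lay above WT and the exact permutation p was 0.1. The Fgfr2 share of heterozygotes lay above that of WT without overlap, by 4.66 points (exact permutation p = 0.1, adjusted p = 0.4). Fgfr3 held 9.87%, 8.99% and 11.8%, and Fgfr4 held 6.13%, 3.59% and 4.80%, in WT, heterozygotes and null embryos. With 3 embryos per genotype, no share could pass a threshold of 0.05 in this test.

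Spry1 (ENSMUSG00000037211, chromosome 3, 37639947 to 37644598, plus strand), a Sprouty inhibitor of receptor tyrosine kinase signaling, was at 74.1, 78.3 and 84.0 CPM in WT, 69.5, 76.7 and 75.01 CPM in heterozygotes and 71.98, 79.7 and 72.4 CPM in null embryos. The 3 groups overlapped. The fold of null over WT was 0.945 with a 95% interval of 0.827 to 1.08 (edgeR adjusted p = 0.7545), and that of heterozygotes over WT was 0.935 with an interval of 0.852 to 1.03 (edgeR adjusted p = 0.5492). Both intervals lie within a change of 0.5 on the log2 scale.

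Spry2 (ENSMUSG00000022114, chromosome 14, 105891947 to 105896819, minus strand), another Sprouty inhibitor, was at 65.1, 37.5 and 46.6 CPM in WT, 73.4, 63.3 and 79.7 CPM in heterozygotes and 67.3, 65.6 and 65.4 CPM in null embryos. WT embryos 2 and 3 were the lowest of the 9, while WT embryo 1 lay just under the null embryos, which were thus apart from WT, and within the heterozygote range. The log2 fold change was 0.41 between null and WT (SE 0.1774, edgeR unadjusted p = 0.0517, adjusted p = 0.4141), with 0.65 without WT embryo 1 and 0.25 without WT embryo 2, and it was 0.54 for heterozygotes over WT (SE 0.1677, edgeR unadjusted p = 0.01, adjusted p = 0.1972). The heterozygote value was 0.78 without WT embryo 1 (edgeR adjusted p = 0.0371) and 0.37 without WT embryo 2 (adjusted p = 0.4604). Heterozygotes and null embryos overlapped, with a log2 difference of -0.13 (95% interval -0.35 to 0.09).

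Dusp6 (ENSMUSG00000019960, chromosome 10, 99263231 to 99267489, plus strand), the phosphatase that inactivates ERK, was at 106.0, 68.6 and 65.9 CPM in WT, 114.7, 115.3 and 134.1 CPM in heterozygotes and 124.2, 102.8 and 98.1 CPM in null embryos. As with Spry2, WT embryos 2 and 3 were the lowest of the 9 libraries. The heterozygotes all lay above WT, a separation found in 8.98% of tested genes in that direction, and null embryos overlapped WT embryo 1. The fold of heterozygotes over WT was 1.51 (95% interval 1.19 to 1.93), a log2 fold change of 0.60 (SE 0.156, edgeR unadjusted p = 0.0035, adjusted p = 0.1262). The log2 fold change of null over WT was 0.43 (SE 0.1849, edgeR unadjusted p = 0.0486, adjusted p = 0.4033). Both values depended on WT embryo 1, without which they were 0.85 (edgeR adjusted p = 0.0044) and 0.69 (adjusted p = 0.109). They were 0.50 and 0.34 without WT embryo 2 (adjusted p = 0.3963 and 0.8238), and 0.47 and 0.31 without WT embryo 3 (adjusted p = 0.114 and 0.7305). Without WT 1, WT 2 and null 3 they were 0.88 (edgeR adjusted p = 0.0014) and 0.79 (adjusted p = 0.1753). The WT group is then embryo 3 alone, the lowest Dusp6 library of the 9, which is assumed to vary like the mutant group, and these values have no replicate check in WT. Marker sums of the prosensory domain, the roof and glia (1624 to 1697 CPM against 1475 to 1572 CPM) also lay higher in all heterozygotes than in WT, and their part in the levels of Dusp6 and Spry2 was not tested. Dusp6 and Spry2 were not among the genes highest in the 3 libraries rich in mesenchyme markers.

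**Figure D3:**
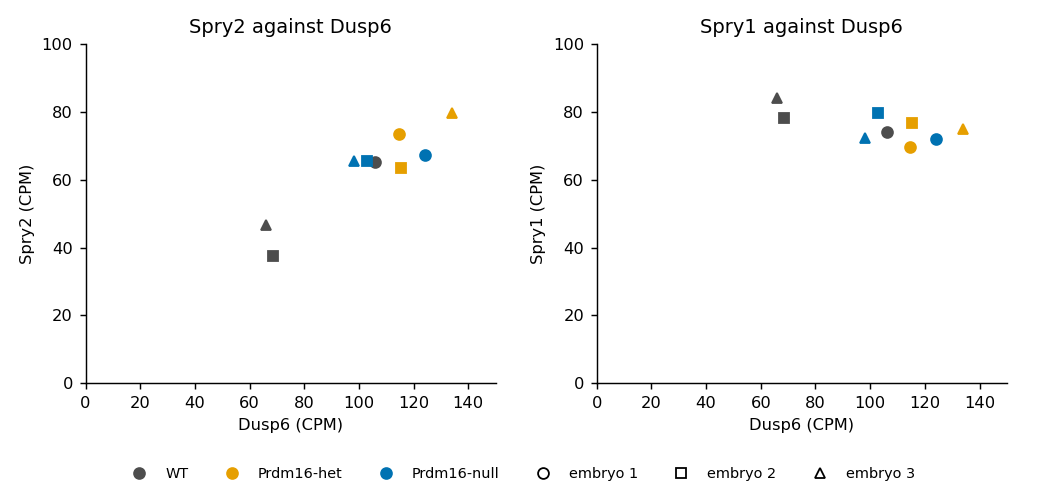
Spry2 (left) and Spry1 (right) against Dusp6 in the 9 libraries, all in CPM on linear axes from 0, with color for the genotype and shape for the embryo number within it. In the left panel WT 2 and WT 3 lie apart at 37.5 and 46.6 CPM of Spry2, WT 1 lies among the mutant libraries, and in the right panel Spry1 stays between 69.5 and 84.0 CPM.

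Spry4 (ENSMUSG00000024427, chromosome 18, 38586247 to 38601415, minus strand), the third Sprouty gene measured, did not share the pattern of Spry2. It was at 30.1, 26.3 and 9.46 CPM in WT, 13.6, 12.1 and 12.8 CPM in heterozygotes and 12.5, 9.52 and 24.1 CPM in null embryos. WT 1, WT 2 and null 3 were its 3 highest libraries, and the genotypes overlapped. The log2 fold change was -0.52 between null and WT (SE 0.4655, edgeR adjusted p = 0.7151), from -0.998 without null 3 to -0.22 without WT 1, and it was -0.77 for heterozygotes over WT (SE 0.3297, edgeR unadjusted p = 0.0421, adjusted p = 0.355). Without WT 1, WT 2 and null 3, with WT 3 as the single WT embryo, the signs turned, to 0.22 and 0.44. Without WT 3 alone, which leaves the mesenchyme-rich WT 1 and WT 2 as the WT group, the heterozygote value was -1.13 (edgeR adjusted p = 1.35e-04).

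Spry4 and Fgfr4 were the 2 of the 10 genes that were higher in each of WT 1, WT 2 and null 3 than in any other library, as were 806 of 17797 tested genes (4.53%). In those 3 libraries Spry4 was at 24.1 to 30.1 CPM and Fgfr4 at 17.4 to 19.6 CPM. In the other 6 they were at 9.46 to 13.6 CPM and at 8.002 to 10.03 CPM, with both WT 3 and the mutants in that range. With the level of the mesenchyme markers as a covariate in the edgeR fit, the null over WT value was 0.07 for Fgfr4 (adjusted p = 0.9127) and 0.08 for Spry4 (adjusted p = 0.9511). Mesenchyme, endothelium and macrophage markers moved together in these libraries, and the part of each in the 2 genes was not tested.

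**Figure D4:**
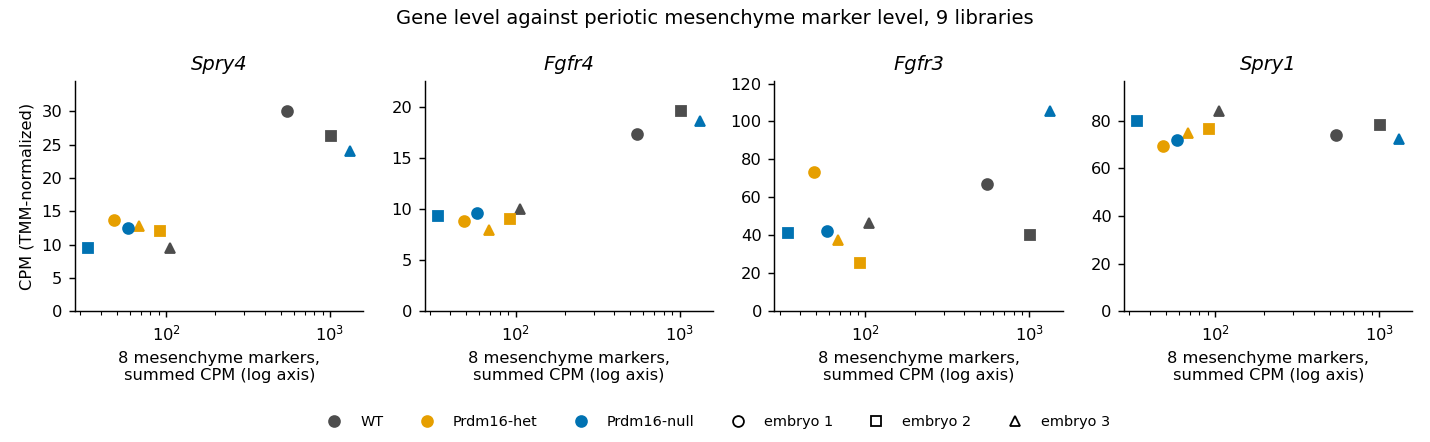
Level of Spry4, Fgfr4, Fgfr3 and Spry1 (CPM, linear axes from 0) against the summed CPM of 8 periotic mesenchyme markers (log axis), 1 point per library, with color for the genotype and shape for the embryo number within it. Spry4 and Fgfr4 are highest in the 3 libraries on the right (WT 1, WT 2 and null 3), Fgfr3 in null 3 only, and Spry1 is level.

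Etv4 (ENSMUSG00000017724, chromosome 11, 101769742 to 101785371, minus strand), an ETS factor of the FGF response, was at 43.7, 50.2 and 39.3 CPM in WT, 41.2, 42.2 and 38.2 CPM in heterozygotes and 47.7, 55.7 and 54.1 CPM in null embryos. The null embryos lay above the heterozygotes without overlap, as in 9.06% of tested genes (18.2% in either direction), and overlapped WT embryo 2. The fold of null over heterozygotes was 1.30 (95% interval 1.12 to 1.497), a log2 fold change of 0.37 (SE 0.0912, edgeR unadjusted p = 0.0032, adjusted p = 0.1686). Against WT it was 0.24 in null embryos (SE 0.1154, edgeR adjusted p = 0.4698) and -0.13 in heterozygotes (SE 0.0917, adjusted p = 0.5956).

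Etv5 (ENSMUSG00000013089, chromosome 16, 22381309 to 22439719, minus strand), the closest relative of Etv4 among these genes, was at 74.3, 85.3 and 88.5 CPM in WT, 85.9, 97.9 and 90.6 CPM in heterozygotes and 95.2, 83.9 and 94.8 CPM in null embryos. All 3 groups overlapped. The fold of null over WT was 1.10 with a 95% interval of 0.944 to 1.28 (edgeR adjusted p = 0.6313). Null embryos and heterozygotes had nearly equal means, with a log2 difference of -0.003 (95% interval -0.21 to 0.20). The difference that separated null embryos from heterozygotes in Etv4 was thus not seen in Etv5, and the difference between the 2 genes was not tested.

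**Figure D5:**
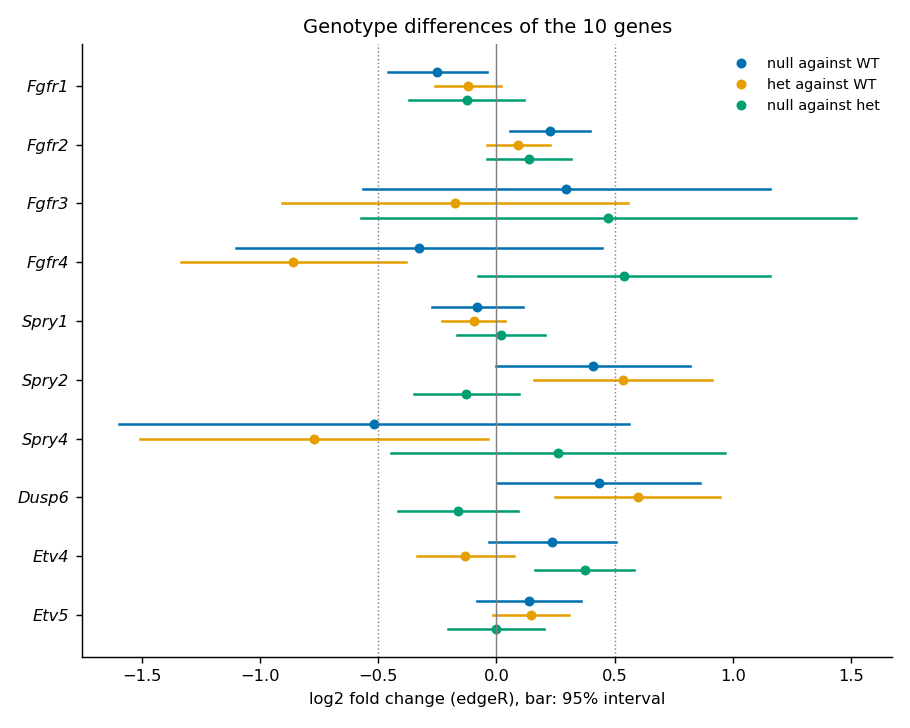
Log2 fold change of each of the 10 genes (edgeR, points) with its 95% interval (bars) for null against WT, het (heterozygotes) against WT and null against het, with dotted lines at the fold threshold of 0.5. Intervals are narrowest for Fgfr2 and Spry1 and widest for Spry4 and Fgfr3.

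Compared per length in TPM, Fgfr1 was the highest of the 10 genes in WT ducts at 152 ± 2.61 (SD, n = 3), apart from the next genes. Spry1, Dusp6, Fgfr2, Spry2 and Etv5 followed at means of 117, 111, 110, 103 and 87.3 TPM, and neighbours in this order overlapped. Etv4 was below them at 62.0 TPM and apart from both of its neighbours. Fgfr3, Spry4 and Fgfr4 were lowest at 30.99, 19.9 and 19.1 TPM, again with overlap. In heterozygotes and null embryos Dusp6 came first, at 167 ± 12.5 and 145 ± 25.6 TPM (SD, n = 3), overlapping Spry2 at 149 and 132 TPM, on this length. The exon length of Fgfr1 and Fgfr2 summed over all their transcripts is 9875 and 10328 bases, while their longest transcripts hold 5041 and 4429 bases. On the length of the longest transcript Fgfr1 and Fgfr2 were the 2 highest genes in WT, at 226 and 196 TPM, and Fgfr2 and Fgfr1 were the 2 highest in heterozygotes (208.3 and 207.9 TPM, overlapping) and in null embryos (222 and 185 TPM), with Dusp6 next at 142 and 124 TPM. The order of these genes thus rests on the length used.

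By likeness of profile, taken as the root mean square difference of log2 CPM over the 9 libraries after centring on the WT mean, the tested genes nearest to Fgfr2 were Zfp651 (0.0433), Wfs1 (0.0446) and Pxn (0.0464). Those nearest to Fgfr1 were Eif2ak2 (0.0566), Dgka (0.0608) and Ubtd2 (0.0609). These are a description of the same 9 libraries.

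Fgf20 and Fgf10 are the ligands whose difference the 10 genes were chosen to read out. Fgf20, the prosensory ligand, was at 16.6, 15.0 and 11.5 CPM in WT, 22.5, 29.8 and 28.3 CPM in heterozygotes and 40.4, 42.5 and 27.3 CPM in null embryos, and rose in null embryos by 1.35 on the log2 scale (SE 0.2035, edgeR adjusted p = 0.0194). Fgf10, the ligand of Kölliker's organ, was at 150.6, 150.1 and 131.2 CPM in WT, 129.1, 125.3 and 152.3 CPM in heterozygotes and 101.5, 101.9 and 87.1 CPM in null embryos, and fell by 0.58 (SE 0.0936, edgeR adjusted p = 0.0254). Null embryos overlapped neither WT nor heterozygotes for Fgf10, and overlapped only the heterozygotes for Fgf20. Fgf20 kept its call without null embryo 3 (edgeR adjusted p = 0.0035) and in none of the 5 other fits that left out 1 embryo (adjusted p from 0.0636 to 0.1141), and Fgf10 kept its call in 2 of 6. The log2 values in these fits were 1.22 to 1.53 for Fgf20 and -0.63 to -0.50 for Fgf10. Without WT 1, WT 2 and null 3, which leaves WT 3 alone, the log2 fold change was 1.85 for Fgf20 (edgeR adjusted p = 2.59e-07) and -0.36 for Fgf10 (adjusted p = 0.9998).

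Fgf16, which belongs to the FGF9 and FGF20 subfamily, rose from 3.41, 2.55 and 2.68 CPM in WT to 10.97, 12.07 and 9.04 CPM in null embryos, with the heterozygotes between them at 6.94, 5.33 and 6.39 CPM. Its log2 fold change was 1.89 in null embryos (SE 0.1969, edgeR adjusted p = 0.0049), and it was called in each of the 6 fits that left out 1 embryo. In heterozygotes it was 1.11 (SE 0.1818, edgeR adjusted p = 0.0498), a call that was lost with limma-voom, with RLE size factors, with a mean count over 100, with all 9 libraries together, with the mesenchyme covariate (adjusted p = 0.4541), without WT 1, WT 2 and null 3 (adjusted p = 0.0616) and in 4 of the 6 fits that left out 1 embryo, whose log2 values were 1.03 to 1.25. Fgf2 was at 5.89, 4.15 and 4.98 CPM in WT and 8.99, 8.74 and 10.13 CPM in null embryos (log2 fold change 0.89, SE 0.1799, edgeR adjusted p = 0.0595). Fgf9, the ligand of the roof, was at 60.7, 56.3 and 60.1 CPM in WT and 80.5, 82.2 and 68.9 CPM in null embryos (log2 fold change 0.38, SE 0.0903, edgeR adjusted p = 0.1011), and is itself 1 of the 4 roof markers whose sum was higher in null embryos. In the fit on the number of trapped alleles, Fgf16, Fgf20, Fgf2 and Fgf9 were called higher (1.8% of all tested genes) and Fgf10 lower (1.17%). Of these, Fgf20 and Fgf10 were known to differ when the 10 genes were chosen.

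In the wider pathway list of 73 other genes, 66 were tested. Between null and WT embryos 2 of them were called higher (Fgf16 and Fgf20, against 0.92% of all tested genes) and 1 lower (Fgf10, against 0.786%), all of them among the 15 tested ligands. Fgf20 and Fgf10 were known to differ when the 10 genes were chosen, so only the Fgf16 call was not fixed beforehand. In this pair 10 of 66 were at an unadjusted p under 0.05 in edgeR, and DESeq2 called 5 higher. Between heterozygotes and WT 1 was called higher (Fgf16, against 0.0521%) and 0 lower, with 14 of 66 at an unadjusted p under 0.05 in edgeR, 2 higher and 1 lower by DESeq2 and 0 by limma-voom. Between null embryos and heterozygotes 0 were called, with 11 of 66 at an unadjusted p under 0.05 in edgeR and 3 called higher by DESeq2. Of the 22 adaptors and RAS to ERK cascade genes, 0 were called by edgeR in any pair (1, 3 and 1 at an unadjusted p under 0.05), and their median for null over WT was -0.04. Of 10 other tested feedback inhibitors of the Spred and Dusp families and 6 membrane modulators, 0 were called by edgeR in any pair (0, 1 and 0, and 0, 2 and 1, at an unadjusted p under 0.05). Of 13 other ERK-responsive genes 0 were called by edgeR (2, 5 and 5 at an unadjusted p under 0.05), with medians of 0.10, -0.37 and 0.57 in the 3 pairs. These shares stand beside the 12.2%, 13.1% and 11.4% of all tested genes at an unadjusted p under 0.05. Over all genes DESeq2 called 618 of 31997 for null against WT, 318 of 32010 for heterozygotes against WT and 357 of 31930 for null against heterozygotes. For heterozygotes against WT limma-voom called 11 of 17269.

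Of the early-response genes among the 13, Fos, Egr1, Ier2 and Junb were looked up after their values were seen. Fos was at 41.2, 65.5 and 110.7 CPM in WT, 18.5, 37.1 and 100.5 CPM in heterozygotes and 53.4, 57.9 and 120.5 CPM in null embryos. Egr1 was at 195.8, 323.9 and 481.1 CPM, 263.4, 214.0 and 426.5 CPM, and 268.6, 182.6 and 414.9 CPM. Embryo 3 was the highest of its genotype for Fos and Ier2 in all 3 genotypes and for Egr1 likewise, while Junb was at 14.7, 27.1 and 25.8 CPM in WT, with embryo 2 the highest, and was highest in embryo 3 of the heterozygotes and null embryos. Dusp6 and Spry2 differed from Fos and Egr1 in this, since embryo 3 was the highest only among heterozygotes and the lowest or the middle one in WT and null ducts.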

How the data were processed

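RNA of 9 libraries, each from the cochlear ducts of one embryo, was measured by single-read TruSeq mRNA sequencing. The authors trimmed reads with cutadapt 1.13, aligned them to mm10 with STAR and counted them with HTSeq 0.6.1p1, per the labels' processing notes, and deposited raw counts per Ensembl gene. The annotation release and strand setting are not given in the sources used here, so reads in exons shared with genes on the other strand (164 bases of Fgfr1, 998 of Fgfr3 and 710 of Spry1, with partners at 1.55 CPM or less) may be assigned to either. Symbols and mm10 positions came from GENCODE.

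Counts were tested in R 4.3.3 with edgeR 4.0.16 (TMM, filterByExpr with a minimum count of 10, quasi-likelihood test, Benjamini-Hochberg adjustment over all genes tested) on the 6 libraries of each pair, two-sided, and on all 9 for the slope per trapped allele. Intervals are 95%, from the same fit. No pair of libraries of one genotype agreed within sampling noise over all genes. Embryos of one genotype are the replicates, and p-values cover their spread only. Receptor shares were tested by exact permutation in scipy 1.17.1. The procedure was tested on simulated data. Alternatives were DESeq2 1.42.0, limma-voom (limma 3.58.1), RLE size factors, no filter, a mean count over 100, a joint fit of all 9 libraries, a block for the label's number, a mesenchyme covariate, other gene lengths and leaving out each embryo. A fit without the 3 libraries rich in mesenchyme markers was chosen after seeing the data.

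Named genes are all 10 genes, Prdm16, Fgf10, Fgf20, every gene of the wider list called in a pair, its 5 genes of lowest p between null and WT, and the 3 profiles nearest to each of the 2 genes of lowest p. Acan, Matn1, Fos, Egr1, Ier2, Junb, Fosl1, Ier3 and Ctbp2 were looked up after values were seen. The members, lists and tests were chosen with earlier results of these data known. Marker lists were written by hand. Upstream sequences are RefSeq GRCm38.p6, held for 7 of the 10 genes. A total of 24095322 to 30819118 counts per library puts 3 counts at 0.0968 to 0.126 CPM, which covers counting error only.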

Additional observations from a re-analysis of the deposited data

How the results depend on the processing

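Across the alternatives, 201 of 248 counts of calls and receptor shares kept their direction and lay within 1.5 times the count given above, and 878 of 992 single-gene values kept their sign and side of the threshold. The number of embryos, 3 per genotype, limits these comparisons, and counting error was not set against the spread between embryos for single genes. The causes of the moves below were not tested. All 10 genes stayed uncalled under every alternative for null against WT and null against heterozygotes. For heterozygotes against WT, DESeq2 called 1 of them (Fgfr4), no filter on low counts 4 (Dusp6, Fgfr4, Spry2 and Spry4) and the fit without WT 1, WT 2 and null 3 called 2 (Dusp6 and Spry2), against the single embryo WT 3, which is assumed to vary like the heterozygotes. Leaving out each embryo called 0 to 2, with Dusp6 and Spry2 without WT 1 and Fgfr4 and Spry4 without WT 3. For the slope DESeq2 called 1 (Fgfr2) and leaving out embryos 0 to 1 (Fgfr1, without null 3).

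The labels do not say whether the numbers 1 to 3 pair the embryos. Same-numbered embryos deviated from the mean of their genotype with correlations of -0.2843 to 0.2019 across genes. For embryos of different number and genotype these were -0.327 to 0.3486. A pairing was thus not seen, but these correlations cannot exclude it. With the number as a replicate block, 2 of the 10 genes were called for heterozygotes against WT (Fgfr4, edgeR adjusted p = 0.0447, and Spry2, adjusted p = 0.0439) and 0 in the other comparisons, with 2 wider pathway genes called higher (Fgf16 and Fgf20) and 3 lower. Over all genes the block called 133 for null against WT, 197 for heterozygotes against WT and 52 for null against heterozygotes, in place of 293, 26 and 105.

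Among the wider pathway genes, DESeq2 called 5 higher for null against WT, 2 higher and 1 lower for heterozygotes against WT and 3 higher for null against heterozygotes. No filter gave 2 higher and 5 lower for heterozygotes against WT and 2 higher for null against heterozygotes. For heterozygotes against WT, limma-voom, RLE size factors, a mean count over 100 and all 9 libraries in one fit each called 0 higher. The mesenchyme covariate gave 2 higher for null against heterozygotes. Without WT 1, WT 2 and null 3, 4 were called lower for null against WT (Dusp1, Dusp5, Egr1 and Fos, against WT 3 alone), 1 lower for heterozygotes against WT and 1 higher for null against heterozygotes. Leaving out each embryo gave 1 to 2 higher and 0 to 1 lower for null against WT, 0 to 2 higher and 0 to 2 lower for heterozygotes against WT, and 0 to 1 higher for null against heterozygotes.

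The sign of some log2 values turned. With the mesenchyme covariate, null against WT was 0.071 for Fgfr4 and 0.076 for Spry4, heterozygotes against WT -0.049 for Fgfr2, 0.51 for Spry4, 0.10 for Etv4, 0.058 for Fgf10 and -0.077 for Fgf2, null against heterozygotes -0.063 for Spry4, and the slope 0.059 for Fgfr4 and 0.0014 for Spry4. Without WT 1, WT 2 and null 3, null against WT was -0.15 for Fgfr3 and 0.22 for Spry4, heterozygotes against WT 0.44 for Spry4, 0.042 for Etv4 and 0.047 for Fgf10, null against heterozygotes -0.12 for Fgfr3 and -0.23 for Spry4, and the slope -0.080 for Fgfr3 and 0.046 for Spry4. Leaving out each embryo gave -0.29 to 0.54 (null against WT), -0.70 to 0.11 (heterozygotes against WT), -0.12 to 1.00 (null against heterozygotes) and -0.15 to 0.29 (slope) for Fgfr3. It gave -0.083 to 0.16 for Fgf2 (heterozygotes against WT) and -0.027 to 0.049 for Spry1, -0.23 to 0.52 for Spry4 and -0.046 to 0.058 for Etv5 (null against heterozygotes). The Fgfr3 share differed by -1.002 to 3.39 points (null against WT), -2.96 to 0.76 points (heterozygotes against WT) and -0.13 to 4.87 points (null against heterozygotes).

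Over all genes, 293 were called for null against WT, and DESeq2 called 618, no filter 476, all 9 libraries in one fit 468 and leaving out each embryo 68 to 446. For heterozygotes against WT 26 were called, and these settings gave 318, 684, 0 and 0 to 505, limma-voom 11, the covariate 10 and the fit without WT 1, WT 2 and null 3 gave 83. For null against heterozygotes 105 were called, and DESeq2 gave 357, no filter 366, all 9 libraries in one fit 164, the covariate 273, the fit without null 3 gave 182 and leaving out each embryo 12 to 182. For the slope 530 were called, and DESeq2 gave 1048, the covariate 837, the fit without WT 1, WT 2 and null 3 gave 206, and leaving out each embryo 273 to 1013, with 283 without WT 1, 273 without null 1, 310 without WT 2 and 1013 without null 3.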
